A study of Mus musculus with 8 samples.

Results

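The 41 genes described here encode proteins that act in the G2 phase of the cell cycle and in mitosis. They were taken by symbol from the gene table of a mouse single-cell RNA sequencing series, and all 41 were found among the 27998 genes listed. The ShhN group was cortex of CD1 mouse embryos at E16.5 that had received a ShhN plasmid by in utero electroporation at E13.5 (4 samples), and it was set against cortex of wild type CD1 littermates of the same age (4 samples). ShhN is the secreted, active piece of the morphogen sonic hedgehog, and in utero electroporation brings plasmid DNA into the dividing cells at the brain ventricle. The labels do not say whether these littermates received another plasmid, nor which promoter drove ShhN. Cortices were dissected under a fluorescence stereoscope, dissociated with papain and loaded on the 10x Genomics droplet system. The 4 samples of a group share 1 matrix with no map from cells to samples, so each group is 1 library, no test between groups was possible and no difference has a replicate check.

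In G2 a cell that has copied its DNA builds up cyclin B and cyclin A, which activate the kinase CDK1 and start mitosis. Mitotic kinases, kinetochore proteins and spindle motors then attach and separate the chromosomes, the midzone and cytokinesis proteins divide the cell, and ubiquitin ligases destroy the cyclins so that the cell leaves mitosis. Most of these genes are transcribed late in the cell cycle and are off in postmitotic cells. In the embryonic cortex, radial glia divide at the ventricle and intermediate progenitors divide away from it, while neurons do not divide.

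Promoters are shown because these genes are known for sharing regulatory letters: CCAAT, bound by the factor NF-Y, and the cell cycle homology regions TTTGAA and TTTAAA, read by the DREAM and B-MYB complexes. RefSeq promoter windows of 300 bases (250 before and 50 after the start, build GRCm38.p6) were given for 37 of the 41 genes, and Spc24, Aurkb, Ccna2 and Tpx2 had none. Counting both strands, CCAAT was found in the windows of 30 of the 37 genes (81.1%), against 37.4% of 32851 windows of all genes. TTTGAA was found in 29 genes (78.4%), against 17.9% of all windows, and TTTAAA in 8 (21.6%), against 13.2%. At least 2 copies of CCAAT were present in 22 genes (59.5%), against 11.7% of all windows, and CCAAT together with either of the other motifs in 28 (75.7%), against 10.7%. In these genes, 1 pair of different motifs overlapped. A match is a run of letters, not a measured binding site. The 5 stretches printed here are the 180 bases before the start, 5′ to 3′ on the gene's strand, with CCAAT and TTTGAA, read on either strand, in capitals. They were chosen after the values were seen: Top2a had the highest ratio between the libraries, Cks1b was the member outside the size rule given further on, Cdc20 had the lowest ratio per dividing cell, and Ccnb2 and Ube2c are a cyclin and an exit gene beside them.
Top2a, chr11:99024190-99024369, minus strand: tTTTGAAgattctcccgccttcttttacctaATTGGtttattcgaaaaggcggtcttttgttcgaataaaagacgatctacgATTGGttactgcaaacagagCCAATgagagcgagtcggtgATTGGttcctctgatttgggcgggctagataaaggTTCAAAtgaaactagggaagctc
Cdc20, chr4:118437344-118437523, minus strand: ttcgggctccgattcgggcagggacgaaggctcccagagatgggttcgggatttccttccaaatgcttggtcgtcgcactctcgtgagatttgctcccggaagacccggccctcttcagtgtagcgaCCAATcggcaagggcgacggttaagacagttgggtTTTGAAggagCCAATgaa
Ccnb2, chr9:70421555-70421734, minus strand: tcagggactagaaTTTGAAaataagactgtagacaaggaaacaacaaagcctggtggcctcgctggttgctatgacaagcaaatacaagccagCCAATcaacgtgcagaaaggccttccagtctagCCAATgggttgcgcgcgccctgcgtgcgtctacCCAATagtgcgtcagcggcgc
Ube2c, chr2:164769749-164769928, plus strand: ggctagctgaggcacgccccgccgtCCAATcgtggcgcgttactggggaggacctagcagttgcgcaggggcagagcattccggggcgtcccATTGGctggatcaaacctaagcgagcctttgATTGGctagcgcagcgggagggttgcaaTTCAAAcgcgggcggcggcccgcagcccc
Cks1b, chr3:89418292-89418471, minus strand: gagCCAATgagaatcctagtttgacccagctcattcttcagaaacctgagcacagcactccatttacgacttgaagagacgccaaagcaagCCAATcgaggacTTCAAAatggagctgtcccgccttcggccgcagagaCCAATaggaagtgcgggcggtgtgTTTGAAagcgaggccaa
Top2a held CCAAT 4 times and TTTGAA 2 times in this stretch, and Cks1b held CCAAT 3 times and TTTGAA 2 times.

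Per library, 8076 ShhN cells and 6920 wild type cells were kept, with medians of 6684 (ShhN) and 6278 (wild type) unique molecular identifiers (UMIs, counted transcripts) per cell. The libraries shared 79 of their called barcodes. Shh itself had 5900 UMIs in the ShhN cells, in 585 cells, and none in the wild type cells. Levels are given as CPM, the UMIs of a gene per 1000000 UMIs of the cells described. All intervals are 95% intervals and cover counting error only. Intervals on UMI counts leave out how far cells vary, and how far embryos or libraries vary was not measured. The size rule calls a gene higher or lower when it has 50 or more UMIs in the 2 libraries together, its log2 ratio (ShhN over wild type) is 1 or more in size, and the whole interval lies beyond 0.5 on that side.

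Over all cells, the G2 and M phase genes were higher in the ShhN library as a group. Their summed level was 2441 CPM in ShhN cells and 776 CPM in wild type cells, a ratio of 3.15. All 41 had at least 50 UMIs, 40 of them were higher past the size rule and none was lower. Of all 13023 genes with that many UMIs, 2.85% were higher and 1.84% were lower. The median log2 ratio was 1.73 over the 41 genes and -0.08 over all genes. Hmgb2 held 25.4% of the summed UMIs in ShhN cells and 25.8% in wild type cells, and without it the sums were 1821 CPM in ShhN cells and 576 CPM in wild type cells. A sum over all cells cannot tell more dividing cells from more transcript per dividing cell; both were therefore counted separately.

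**Figure D1:**
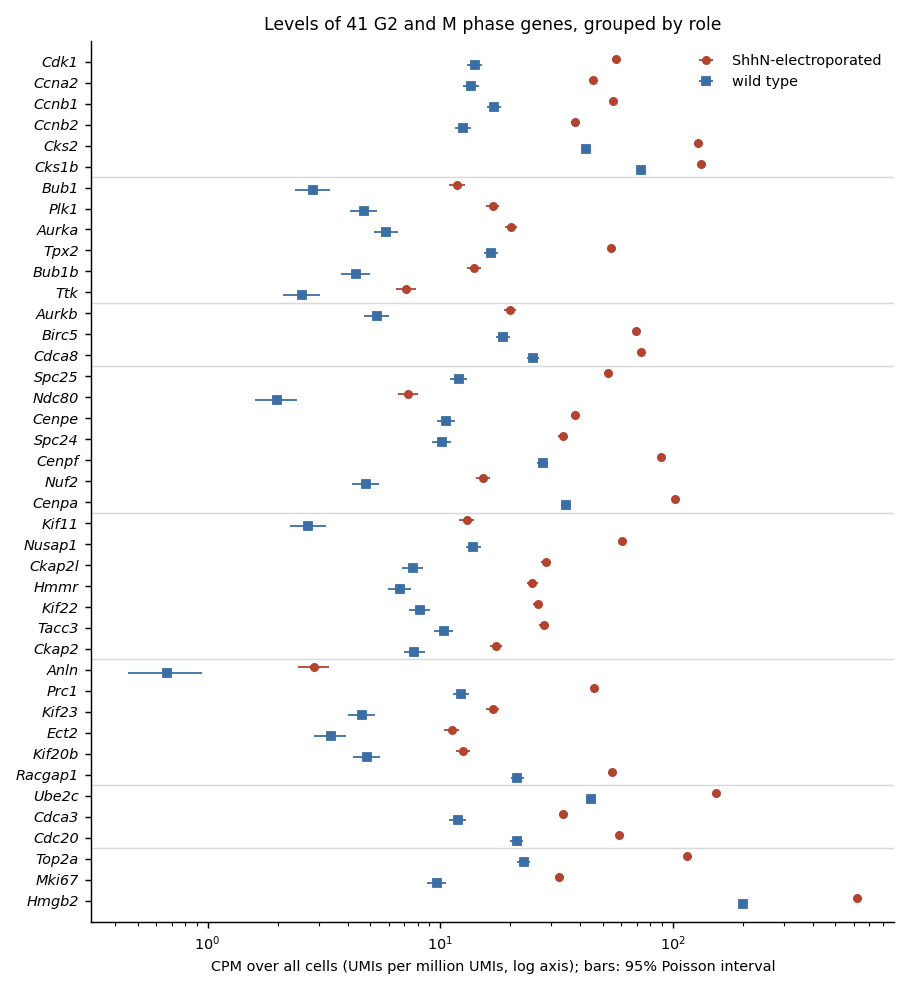
Levels of the 41 genes over all cells in CPM (horizontal log axis), grouped by role between grey lines, for the ShhN library (circles) and the wild type library (squares), with 95% Poisson intervals as bars. Each ShhN circle lies to the right of its wild type square, and the pair of Cks1b (132.98 CPM for ShhN and 73.3 CPM for wild type) lies closest together.

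Among the cyclins, CDK1 and its adaptors, 5 of 6 genes were higher, with a median log2 ratio of 1.65. Cdk1, the kinase that starts mitosis, had 56.8 CPM in ShhN cells and 14.1 CPM in wild type cells, a log2 ratio of 2.01 (1.89 to 2.14). Its partners were each higher by less: Ccnb1 had 55.6 CPM in ShhN cells and 17.1 CPM in wild type cells (1.70), and Ccnb2 had 38.2 CPM in ShhN cells and 12.5 CPM in wild type cells (1.61). Ccna2, the A-type cyclin that acts from S phase to early mitosis, had 45.5 CPM in ShhN cells and 13.6 CPM in wild type cells (1.74). Cks2 and Cks1b encode small adaptors of the cyclin-dependent kinases, and they parted. Cks2 had 128.7 CPM in ShhN cells and 42.5 CPM in wild type cells, a log2 ratio of 1.60. Cks1b had 132.98 CPM in ShhN cells and 73.3 CPM in wild type cells, a log2 ratio of 0.86 (0.80 to 0.92), and was the member that did not pass the size rule.

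All 6 mitotic kinases and activators were higher, with a median of 1.75. Plk1, a kinase that matures centrosomes, had 16.8 CPM in ShhN cells and 4.70 CPM in wild type cells (1.84). Aurka, the centrosomal Aurora kinase, had 20.2 CPM in ShhN cells and 5.86 CPM in wild type cells (1.79), and its activator Tpx2 had 54.5 CPM in ShhN cells and 16.5 CPM in wild type cells (1.72). The spindle checkpoint kinases Bub1 and Bub1b had log2 ratios of 2.06 and 1.70, and Ttk had 7.17 CPM in ShhN cells and 2.54 CPM in wild type cells. The 3 genes of the chromosomal passenger complex, which corrects wrong attachments of chromosomes, were all higher, with a median of 1.90. Aurkb, its kinase, had 20.1 CPM in ShhN cells and 5.34 CPM in wild type cells (1.91), Birc5 (survivin) had 69.9 CPM in ShhN cells and 18.7 CPM in wild type cells (1.90), and Cdca8 (borealin) had 73.3 CPM in ShhN cells and 25.1 CPM in wild type cells (1.55).

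All 7 centromere and kinetochore genes were higher, with a median of 1.73. Cenpa, the histone variant that marks centromeres, had 102.3 CPM in ShhN cells and 34.9 CPM in wild type cells (1.55), the lowest ratio of this role. Cenpf had 89.1 CPM in ShhN cells and 27.6 CPM in wild type cells (1.69), and the kinetochore motor Cenpe had 38.1 CPM in ShhN cells and 10.6 CPM in wild type cells (1.84). Ndc80, Nuf2, Spc24 and Spc25 make up the complex that grips microtubule ends, and they had log2 ratios of 1.88, 1.68, 1.73 and 2.13. All 7 spindle motors and microtubule binders were higher, with a median of 1.90. Kif11, the motor that pushes the spindle poles apart, had 13.03 CPM in ShhN cells and 2.71 CPM in wild type cells (2.26). Nusap1, which bundles spindle microtubules, had 60.9 CPM in ShhN cells and 13.9 CPM in wild type cells (2.13). Ckap2 (1.17) and Tacc3 (1.43) had the lowest ratios of this role, and Hmmr (1.90), Ckap2l (1.90) and Kif22 (1.69) lay between.

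The 6 midzone and cytokinesis genes were all higher, with a median of 1.80. Prc1, which bundles the central spindle, had 45.9 CPM in ShhN cells and 12.3 CPM in wild type cells (1.90). Racgap1, a subunit of the centralspindlin complex, had 55.0 CPM in ShhN cells and 21.5 CPM in wild type cells (1.36), and its partner motor Kif23 had 16.8 CPM in ShhN cells and 4.61 CPM in wild type cells (1.87). Ect2, the exchange factor that activates RhoA at the cleavage furrow, and the motor Kif20b had log2 ratios of 1.73 and 1.38. Anln, which anchors the contractile ring, had only 164 UMIs in ShhN cells and 31 in wild type cells, and its log2 ratio of 2.10 had an interval of 1.54 to 2.70. The 3 genes of mitotic exit and ubiquitin ligases were all higher, with a median of 1.51. Ube2c, the ubiquitin-conjugating enzyme of the anaphase-promoting complex, had 153.1 CPM in ShhN cells and 44.5 CPM in wild type cells (1.78). Cdc20, an activator of the same complex, had 58.6 CPM in ShhN cells and 21.4 CPM in wild type cells (1.45), and Cdca3 had 33.9 CPM in ShhN cells and 11.9 CPM in wild type cells (1.51). Of the 3 chromatin genes, all higher, Top2a had the largest ratio among the 41. It encodes the topoisomerase that untangles sister chromosomes and had 115.1 CPM (6599 UMIs) in ShhN cells and 22.9 CPM (1061 UMIs) in wild type cells, a log2 ratio of 2.33 (2.24 to 2.43). Mki67, whose protein coats mitotic chromosomes, had 32.5 CPM in ShhN cells and 9.67 CPM in wild type cells (1.75), and Hmgb2, a DNA-bending protein, had 620.1 CPM in ShhN cells and 199.96 CPM in wild type cells (1.63).

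Other genes of the same phases, 79 in all and none of them a member, were counted beside these: 59 were higher over all cells, none was lower, and their median log2 ratio was 1.54. The highest ratios were those of Kif14 (2.64), Cdca2 (2.40), Sgol1 (2.22) and Mybl2 (2.17), and the lowest those of Fzr1 (-0.05), G2e3 (-0.02), Ckap5 (0.00) and Lin52 (0.04). The 55 S phase genes had a median of 1.04, with 29 higher and none lower. Exo1 (2.48), Clspn (2.43), Cdc6 (2.29) and Tk1 (2.21) had the highest S phase ratios, and Casp8ap2 (0.03), Ubr7 (0.19) and Pold3 (0.30) were among the lowest. The D cyclins, which act in G1, had log2 ratios of 1.95 for Ccnd2 and 0.77 for Ccnd1.

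Free RNA carried the same genes. In barcodes with 1 to 50 UMIs, too few for a cell, the 41 genes summed to 2201 CPM in the ShhN library and 649 CPM in the wild type library. That is 90.2% of their level in the cells of the ShhN library and 83.6% of that in the wild type library. Single UMIs in a cell are therefore not read as expression, and the counts per cell that follow rest on at least 8 different members.

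When each cell was thinned to 4500 UMIs, so that depth was equal, most cells showed none or few of the 41 genes. No member was seen in 27.4% of 7019 ShhN cells and 44.8% of 5257 wild type cells. At least 20 members were seen in 7.51% of ShhN cells and 2.04% of wild type cells, and the highest number in any cell was 36 in each library. A cell with at least 8 members is called a dividing cell here. The share of dividing cells was 13.4% in the ShhN library (940 of 7019 cells, 12.6 to 14.2%) and 3.61% in the wild type library (190 of 5257 cells, 3.13 to 4.15%), a ratio of 3.71. Without thinning the shares were 13.6% of ShhN cells and 3.41% of wild type cells. Thinning left out 1057 ShhN cells and 1663 wild type cells, and 173 ShhN and 37 wild type cells lay near the limit, with 6 to 9 members. In deep layer neuron-like cells, which do not divide, the share was 0.116% in the ShhN library (1 of 863 cells, median 7611 UMIs) and 0.140% in the wild type library (1 of 715 cells, median 7410 UMIs). The shares are thus far above the level in a class that should lack these genes.

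**Figure D2:**
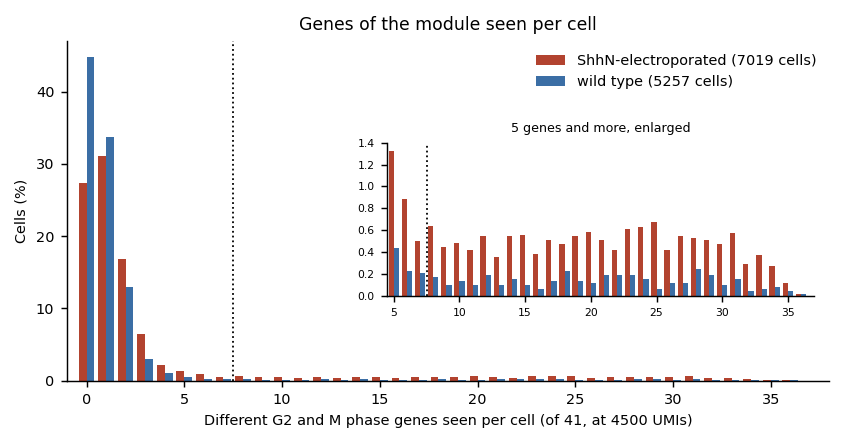
Share of cells (vertical axis, percent) by the number of the 41 genes seen in a cell thinned to 4500 UMIs (horizontal axis), for the ShhN library (left bars) and the wild type library (right bars); the inset enlarges cells with 5 genes and more, and the dotted line marks the limit of 8. No gene was seen in 27.4% of ShhN cells and 44.8% of wild type cells, and ShhN bars are higher over most of the range above the limit.

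Mki67 or Top2a, a simpler mark of dividing cells, was seen in 15.04% of ShhN cells and 4.68% of wild type cells, a ratio of 3.22. In deep layer neuron-like cells it was seen in 3.36% of ShhN cells and 1.399% of wild type cells, so this mark was also seen in cells that do not divide. How strictly a member marks dividing cells varied. Hmmr had 97.0% of its thinned UMIs in dividing cells of the ShhN library and 94.3% in those of the wild type library. Cks1b had 59.8% in ShhN and 27.0% in wild type dividing cells, and was seen in 22.0% of the other ShhN cells and 21.6% of the other wild type cells. In those other cells Cks1b stood at 57.9 CPM in the ShhN library and 56.9 CPM in the wild type library (log2 ratio 0.03). Members, Cks1b among them, chose these cells, so these values are a description. In deep layer neuron-like cells, a class drawn without cell cycle genes, Cks1b was seen in 15.3% of ShhN cells and 17.9% of wild type cells, and the part of free RNA in this was not tested. Across the 1130 dividing cells of both libraries, the correlation between 2 members had a median r of 0.21 over 820 pairs, highest for Cenpa with Ube2c (0.63) and lowest for Top2a with Cenpa (-0.13). These values describe cells that share a library and a fixed depth.

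Classes of cells were rebuilt by clustering without cell cycle genes and named from marker lists; 13 of 22 clusters could be named. In radial glia-like cells (235 ShhN and 176 wild type cells, 1 cluster in which all 16 radial glia markers were raised) the 41 genes were at similar levels in both libraries. Their sum was 7061 CPM in ShhN cells and 6689 CPM in wild type cells. Of 39 members with at least 50 UMIs, none was higher or lower past the size rule; of all 6619 genes, 0.483% were higher and 0.453% were lower. The median log2 ratio was 0.17 over the members and 0.00 over all genes. Nusap1 (0.61, interval 0.30 to 0.92), Top2a (0.54, 0.30 to 0.79), Cdk1 (0.44, 0.14 to 0.75), Prc1 (0.41, 0.13 to 0.69), Plk1 (0.67, 0.19 to 1.17) and Bub1 had intervals above 0, while Ube2c (-0.20, -0.39 to -0.01) had an interval below 0. The share of all genes with intervals beyond 0 was not counted in these cells, so nothing is read from this list. Cdc20 had 223.7 CPM in ShhN cells and 227.4 CPM in wild type cells. The share of dividing cells was 41.97% of ShhN cells (81 of 193, 34.9 to 49.3%) and 41.5% of wild type cells (61 of 147, 33.4 to 49.9%). The ratio of these shares was 1.01, with an interval of 0.717 to 1.43. This interval takes the dividing cells as counts rather than as parts of a whole, which makes it wide for shares of this size. With that many cells, a difference within it could not be told from none.

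In neurogenic intermediate progenitor-like cells (906 ShhN and 425 wild type cells) the same genes were higher in the ShhN library. Their sum was 11417 CPM in ShhN cells and 5077 CPM in wild type cells. All 41 were measured, 38 were higher and none was lower; of all 9124 genes, 2.82% were higher and 2.41% were lower. The median log2 ratio was 1.25 over the members and -0.09 over all genes. Top2a had 580.3 CPM in ShhN cells and 199.6 CPM in wild type cells (1.54, 1.41 to 1.67), Cdk1 had 287.7 CPM in ShhN cells and 105.4 CPM in wild type cells (1.45), and Kif23 had 91.1 CPM in ShhN cells and 31.2 CPM in wild type cells (1.55). The members outside the rule were Cdca3 (0.97), Cks1b (0.90) and Tacc3 (0.84). The share of dividing cells was 63.8% of ShhN cells (531 of 832, 60.5 to 67.1%) and 26.1% of wild type cells (99 of 380, 21.7 to 30.8%), a ratio of 2.45.

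Different clusters held most of this class in each library. Cluster 8 held 749 ShhN and 122 wild type cells, and cluster 13, led by Neurod4 and Eomes, held 157 ShhN and 303 wild type cells. Although cell cycle genes were left out when the clusters were drawn, 8 of the 10 leading genes of cluster 8 were members and none was an intermediate progenitor marker, although 9 of 12 such markers were raised in it. The 2 clusters thus differ in the G2 and M phase genes themselves, and the values within them are a description. Within cluster 8 the members summed to 13121 CPM in ShhN cells and 14328 CPM in wild type cells (median log2 ratio -0.11), none of the 41 was higher (0.354% of all genes were), and dividing cells made up 75.5% of ShhN cells and 81.4% of wild type cells. Within cluster 13 they summed to 2247 CPM in ShhN cells and 904.1 CPM in wild type cells, 15 of 19 measured members were higher (0.54% of all genes), and dividing cells made up 6.38% of ShhN cells (9 of 141) and 2.62% of wild type cells (7 of 267). Cluster 8, where the members were high in both libraries, held 749 of the 906 ShhN cells and 122 of the 425 wild type cells of the class.

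**Figure D3:**
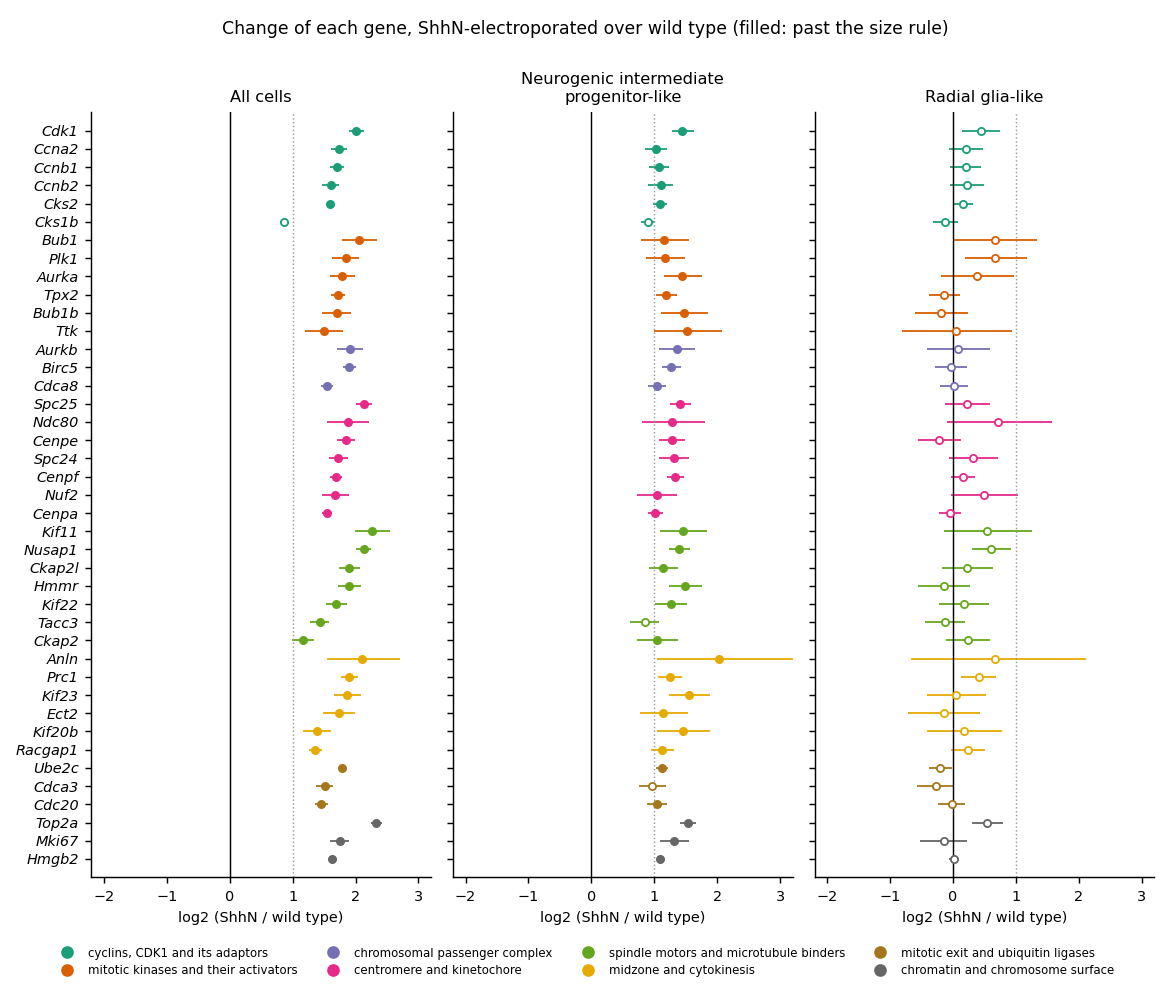
Log2 ratio of each gene, ShhN over wild type (horizontal axis), over all cells, in neurogenic intermediate progenitor-like cells and in radial glia-like cells, coloured by role, with 95% intervals; filled circles pass the size rule and the dotted line marks a log2 ratio of 1. The medians are 1.73, 1.25 and 0.17, and no circle is filled in the radial glia-like panel.

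A cluster led by Olig1 and Olig2 was not named, since more of its leading genes were GABAergic interneuron markers (among them Dlx1, Dlx2 and Sp9) than markers of the list it matched best. It held 502 ShhN cells and 41 wild type cells, and as the wild type number is below 100, its genes were not counted against the size rule. The 41 genes summed to 9298 CPM in ShhN cells and 9292 CPM in wild type cells, with a median log2 ratio of -0.05. Dividing cells made up 64.3% of ShhN cells (284 of 442, 59.6 to 68.7%) and 53.1% of wild type cells (17 of 32, 34.7 to 70.9%). The levels per cell class were thus close, while the number of such cells differed.

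In the neuron-like classes drawn by clustering the genes were low. In deep layer neuron-like cells they summed to 178.7 CPM in ShhN cells and 124.3 CPM in wild type cells, and none of 8 measured members was higher (0.062% of all genes were). In upper layer neuron-like cells the sums were 184.3 CPM in ShhN cells and 137.9 CPM in wild type cells, and 1 of 8 members was higher (0.216% of all genes), and in migrating neuron-like cells they were 369.3 CPM in ShhN cells and 226.3 CPM in wild type cells, and 1 of 8 was higher (0.383% of all genes). In cluster 5, led by Pcp4 and Ulk4, the sums were 635.4 CPM in ShhN cells and 338.0 CPM in wild type cells, and 5 of 9 members were higher (0.266% of all genes). Its share of dividing cells was 2.21% (8 of 362) in the ShhN library and 0.771% (3 of 389) in the wild type library, with overlapping intervals, and 18 ShhN and 3 wild type cells lay near the limit, with 6 to 9 members. In cluster 10, led by Tfap2d and Gcg, 3.34% of 479 ShhN cells were dividing, against 0 of 45 wild type cells, which allows a share of up to 6.67%, and 14 ShhN cells of it lay near the limit, against 16 with at least 8 members. In the other clusters with at least 100 cells in each library, 1 of 8 members in cluster 0 (0.256% of all genes), 1 of 6 in cluster 3 (0.173%), 1 of 7 in cluster 6 (0.214%) and none of 3 in cluster 7 (0.321%) were higher. In GABAergic interneuron-like cells 2 of 3 were higher (0.324%), with sums of 232.4 CPM in ShhN cells and 129.1 CPM in wild type cells. These cells held no dividing cell among 77 of the thinned cells in the ShhN library, which allows up to 3.90%, nor among 121 in the wild type library, which allows up to 2.48%. In an unnamed cluster led by Rgs5 and Igfbp7, dividing cells made up 19.05% of 42 ShhN cells and 15.8% of 38 wild type cells, and the number of cells limits that comparison. The 41 genes summed there to 2377 CPM in ShhN cells and 1739 CPM in wild type cells. In cluster 18, led by Gm10263 and Fabp3 (87 ShhN and 78 wild type cells), they summed to 2142 CPM in ShhN cells and 1725 CPM in wild type cells, and 2 ShhN and 6 wild type cells were deep enough to be thinned. Free RNA of these genes was higher in the ShhN library, as given above, and its part in the small differences among neurons was not tested.

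**Figure D4:**
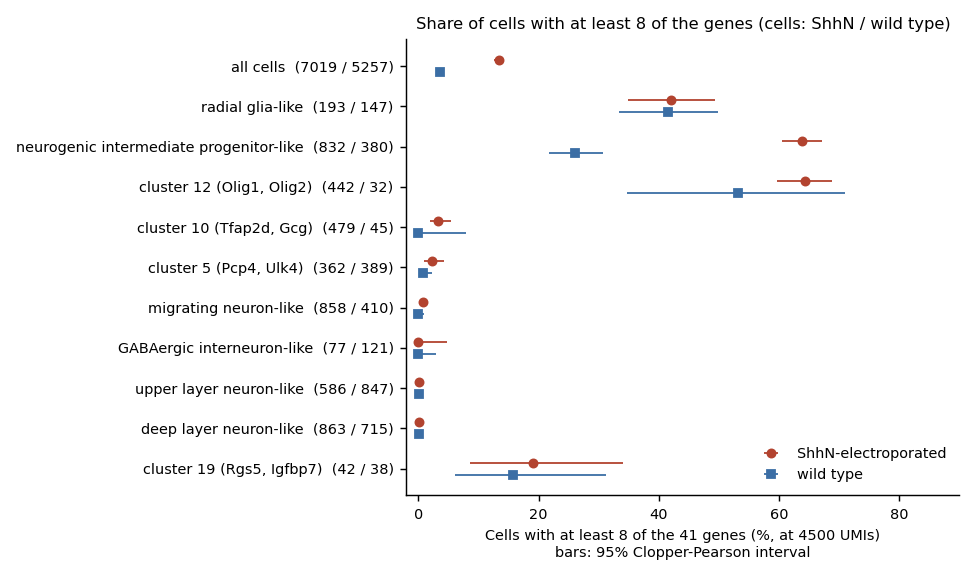
Share of cells with at least 8 of the 41 genes at 4500 UMIs (horizontal axis, percent) by class, for the ShhN library (circles) and the wild type library (squares), with 95% Clopper-Pearson intervals and the number of cells, ShhN first. The libraries part in all cells (13.4% and 3.61%) and in neurogenic intermediate progenitor-like cells (63.8% and 26.1%) and lie together in radial glia-like cells (41.97% and 41.5%).

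Because cluster 8 was led by members, cells were also sorted one by one into the class whose markers, none of them a member, had the highest mean level. In cells sorted as radial glia-like (459 ShhN and 213 wild type cells) none of 41 members was higher (1.26% of all genes were), the median log2 ratio was 0.20, and dividing cells made up 55.9% of ShhN cells and 44.8% of wild type cells. In cells sorted as neurogenic intermediate progenitor-like (669 ShhN and 335 wild type cells) all 41 were higher (2.73% of all genes), the median was 1.34, and dividing cells made up 46.5% of ShhN cells and 17.7% of wild type cells. For the radial glia-like gate the intervals of the shares were 50.9 to 60.9% in ShhN cells and 37.4 to 52.3% in wild type cells, further apart than in the cluster but overlapping. In cells sorted as GABAergic interneuron-like (482 ShhN and 689 wild type cells), all 40 measured members were higher (5.84% of all genes), and the sum was 5693 CPM in ShhN cells and 497 CPM in wild type cells. Dividing cells made up 45.8% of these ShhN cells (120 of 262) and 2.70% of these wild type cells (3 of 111). This gate was shallow, with medians of 4661 UMIs in ShhN cells and 3629 UMIs in wild type cells, and thinning left out 220 ShhN and 578 wild type cells. The GABAergic clusters held no dividing cell, so the clusters placed these cells elsewhere. In cells sorted as migrating, upper layer and deep layer neuron-like, 39 of 40 (1.92% of all genes), 22 of 29 (0.6%) and none of 7 (0.0845%) members were higher. In the upper layer gate the sum was 332.4 CPM in ShhN cells and 151.5 CPM in wild type cells. Dividing cells made up 0.967% of its ShhN cells (19 of 1964) and 0.0562% of its wild type cells (1 of 1780). In the upper layer clusters 1 of 8 measured members was higher, and the part of these few dividing cells in the gate's count was not tested. In the migrating neuron-like gate the sum was 1879 CPM in ShhN cells and 529 CPM in wild type cells. Dividing cells made up 8.57% of its ShhN cells (244 of 2846) and 1.85% of its wild type cells (37 of 2000). Its name rests on marker levels alone, and whether its dividing cells are neurons was not tested.

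The dividing cells came from different classes in each library. Radial glia-like cells made up 8.62% of dividing cells in the ShhN library (81 of 940) and 32.1% in the wild type library (61 of 190). The Olig1 and Olig2 cluster made up 30.2% (284) of ShhN and 8.95% (17) of wild type dividing cells, and neurogenic intermediate progenitor-like cells 56.5% (531) of ShhN and 52.1% (99) of wild type ones. These shares depend on how classes are drawn. By the marker gates, radial glia-like cells made up 23.6% (222) of ShhN and 42.6% (81) of wild type dividing cells, neurogenic intermediate progenitor-like cells 29.4% (276) of ShhN and 26.8% (51) of wild type ones, migrating neuron-like cells 26.0% (244) of ShhN and 19.5% (37) of wild type ones, and GABAergic interneuron-like cells 12.8% (120) of ShhN and 1.58% (3) of wild type ones. Genes other than members also differed: 9 of 16 radial glia markers were lower in dividing cells of the ShhN library (2.77% of all 9397 genes were), with a median log2 ratio of -1.11 and sums of 2714 CPM in ShhN cells and 6894 CPM in wild type cells. The list was not uniform. Fabp7 alone had 720 CPM in ShhN cells and 3332 CPM in wild type cells, while Sox2 (-0.002), Pax6 (-0.11) and Sox9 (-0.14) barely differed. Of the GABAergic interneuron markers, 10 of 16 were measured and 6 were higher (0.745% of all genes): Gad2, Dlx1, Dlx2, Dlx5, Dlx6os1 and Sp9. The sums of the list were 676.1 CPM in ShhN cells and 240.3 CPM in wild type cells. Markers with fewer than 50 UMIs were not called either way, so the rise holds for the named genes and is not read as one of the whole list. Dlx1 or Dlx2, homeobox genes of the GABAergic lineage, was seen in 23.4% of ShhN and 4.74% of wild type dividing cells, against 2.32% of ShhN and 2.66% of wild type deep layer neuron-like cells. Ptch1, a receptor gene that hedgehog signalling induces, was seen in 31.1% of ShhN and 5.79% of wild type dividing cells, against 6.84% of ShhN and 5.03% of wild type deep layer neuron-like cells. Eomes, the intermediate progenitor factor, was seen in 41.7% of ShhN and 45.3% of wild type dividing cells. Markers of other tissues also moved: 4 of 5 measured erythroid markers (of 8) were lower in ShhN dividing cells, with sums of 4566 CPM in ShhN cells and 11617 CPM in wild type cells, and 5 of 9 measured endothelial markers (of 10), with sums of 125.8 CPM in ShhN cells and 397.8 CPM in wild type cells. All 3 measured mural markers (of 8) were lower as well. Microglia markers went the other way, with sums of 26.8 CPM in ShhN cells and 1.07 CPM in wild type cells. Only 1 of these 10, Cx3cr1, was measured, and it was higher. Their part in the results was not tested.

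How much of each gene a dividing cell carried was measured without using the gene to choose the cell. The 41 genes were put in alphabetical order and divided into 21 odd and 20 even genes; cells with at least 4 genes of either list were taken and the other list was measured in them. The odd genes chose 904 ShhN and 189 wild type cells, in which the even genes summed to 42.4 UMIs per ShhN cell and 42.5 UMIs per wild type cell. The even genes chose 1006 ShhN and 208 wild type cells, in which the odd genes summed to 20.1 UMIs per ShhN cell and 20.3 UMIs per wild type cell. Over all 41 genes the median log2 ratio per dividing cell was 0.01, with a range of -0.46 to 0.74, against 1.73 over all cells.

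Some single genes had intervals beyond 0, in either direction. The interval lay above 0 for 4 genes, 2 of the 20 even genes and 2 of the 21 odd genes, where 6.23% and 6.61% of all genes in the same cells lay above 0. With so few genes these counts lie near that share, and nothing is read from them. Top2a had 3.25 UMIs per ShhN dividing cell and 1.95 per wild type dividing cell (0.74, 0.58 to 0.90), the largest departure. Nusap1 had 1.57 UMIs in ShhN cells and 1.11 UMIs in wild type cells (0.51), Kif11 had 0.352 UMIs in ShhN cells and 0.243 UMIs in wild type cells (0.53), and Cdk1 had 1.35 UMIs in ShhN cells and 1.09 UMIs in wild type cells (0.31). The interval lay below 0 for 9 genes, 5 of the even and 4 of the odd genes, where 10.3% and 10.6% of all genes lay below 0. Cdc20 had 1.54 UMIs per ShhN dividing cell and 2.11 per wild type dividing cell (-0.46, -0.62 to -0.29), and Tacc3 had 0.676 UMIs in ShhN cells and 0.918 UMIs in wild type cells (-0.44, -0.68 to -0.20). The others below 0 were Cdca3 (-0.30), Ccnb2 (-0.27), Cenpa (-0.22), Ccna2 (-0.20), Ccnb1 (-0.18), Cks2 (-0.18) and Cdca8 (-0.16). These 9 genes span roles, from cyclins and their adaptors to the kinetochore, the spindle and mitotic exit. For the remaining 28 genes the interval held 0, as for Hmgb2 with 16.0 UMIs per ShhN cell and 15.9 UMIs per wild type cell.

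**Figure D5:**
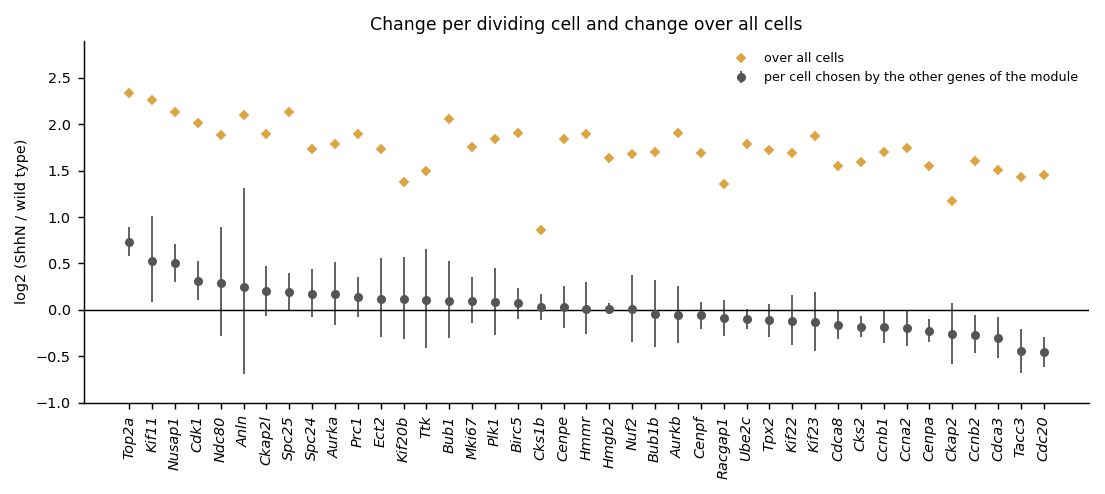
Log2 ratio, ShhN over wild type (vertical axis), of UMIs per dividing cell, thinned to 4500 UMIs, for each gene, with 95% intervals (circles). Beside it stands its ratio over all cells (diamonds), and genes are ordered by the ratio per dividing cell. Circles lie around 0, with Top2a highest (0.74) and Cdc20 lowest (-0.46), and every diamond lies above its circle.

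Of 34 measured members in radial glia-like dividing cells, 6 had intervals above 0 and 0 below. In neurogenic intermediate progenitor-like ones 4 of 40 lay above and 7 below, and in the Olig1 and Olig2 cluster 3 of 40 above and 8 below. The share of all genes was not counted there. Top2a and Cdc20 were followed as the extremes over all dividing cells, so their values are a description. For Top2a the interval per dividing cell lay above 0 in each of these groups. In radial glia-like dividing cells it had 2.26 UMIs per ShhN cell and 1.29 per wild type cell (0.81, 0.42 to 1.21), in neurogenic intermediate progenitor-like dividing cells 3.60 per ShhN cell and 2.43 per wild type cell (0.56, 0.37 to 0.76), and in the Olig1 and Olig2 cluster 3.23 per ShhN cell and 2.06 per wild type cell (0.65, 0.15 to 1.19). Cdc20 had 2.12 UMIs per ShhN cell and 2.48 per wild type cell in radial glia-like dividing cells, where its interval held 0 (-0.23, -0.56 to 0.10), and 1.77 per ShhN cell and 2.11 per wild type cell in neurogenic intermediate progenitor-like ones (-0.26, -0.47 to -0.03). In the Olig1 and Olig2 cluster Cdc20 had 1.09 UMIs per ShhN cell and 1.88 per wild type cell (-0.78, -1.32 to -0.18). The wild type value rests on 30 UMIs in 16 cells, and the interval leaves out the spread between these cells. S phase genes were also counted in the dividing cells, although members chose those cells: 54 of 55 had a log2 ratio above 0, none passed the size rule, and the median was 0.52. Of all 9397 genes in these cells, 3882 lay above 0 and the median was -0.06.

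Members that peak late (Aurka, Plk1, Cdc20, Ccnb1, Cenpa, Cenpe, Cenpf, Hmmr, Tpx2 and Ube2c) were set against members that rise early (Cdk1, Ccna2, Top2a, Mki67, Spc24, Spc25, Cks1b, Hmgb2, Kif22 and Tacc3). Late members held 34.9% of the UMIs of both lists over all ShhN cells and 33.7% over all wild type cells. The share was 35.4% in ShhN and 36.6% in wild type radial glia-like cells, and 37.1% in both libraries in neurogenic intermediate progenitor-like cells. In the Olig1 and Olig2 cluster it was 33.1% (32.5 to 33.7%) in ShhN cells and 44.1% (42.02 to 46.2%) in the 41 wild type cells. In cells with at least 8 members it was 36.7% in the ShhN library and 39.8% in the wild type library. In the other classes with at least 100 cells in each library, except cluster 8 (37.2% in ShhN and 39.4% in wild type cells), the late share was higher in the ShhN library. It was 28.9% in ShhN and 18.3% in wild type cells of cluster 5, 33.9% in ShhN and 21.7% in wild type cells of cluster 13, and 24.3% in ShhN and 18.1% in wild type upper layer neuron-like cells. The late share thus differed in either direction between classes. In wild type upper layer neuron-like cells, however, Cks1b (365 UMIs) and Hmgb2 (213) held most of the 649 early UMIs. In wild type cells of cluster 5, Cks1b (163) and Hmgb2 (467) held most of 731. In classes with few dividing cells the late share is therefore not read as a balance of late over early members.

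Cells with fewer than 8 members differed as well, at low levels. The 41 genes summed to 340.9 CPM in these ShhN cells and 209.3 CPM in these wild type cells. Of 35 measured members 11 were higher, against 1.08% of all 12562 genes, but the members chose these cells and nothing is read from the count. Ccnb1 had 3.33 CPM in ShhN cells and 0.957 CPM in wild type cells, and Ube2c had 19.6 CPM in ShhN cells and 7.37 CPM in wild type cells. Free RNA of the members differed in the same direction, and its part was not tested.

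Within the ShhN library, cells that carried Shh transcripts were compared with those that carried none. Dividing cells made up 6.43% of cells with at least 3 Shh UMIs (20 of 311, 3.97 to 9.76%), 16.4% of cells with 1 to 2 (37 of 225, 11.9 to 21.9%) and 13.6% of cells with none (883 of 6483, 12.8 to 14.5%). Among neurogenic intermediate progenitor-like cells these groups had 72.7% (8 of 11), 82.1% (23 of 28) and 63.1% (500 of 793), and in the Olig1 and Olig2 cluster 71.4% (10 of 14), 76.9% (10 of 13) and 63.6% (264 of 415). Over all cells the share was lower in cells with at least 3 Shh UMIs than in cells with none. The share in Shh-carrying cells over that in Shh-free cells was 0.472 with this limit, 0.781 with at least 1 Shh UMI and 0.205 with at least 10. Within neurogenic intermediate progenitor-like cells and within the Olig1 and Olig2 cluster it was not lower, and the intervals overlapped. Among upper layer neuron-like cells, 91 carried at least 3 Shh UMIs and none of them was dividing, which allows a share of up to 3.30%. Single Shh UMIs can come from free RNA.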

How the data were processed

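Per the labels, cortices of 4 ShhN-electroporated and 4 wild type samples were sequenced on the 10x Genomics system. The deposited values are UMI counts per gene and barcode, not normalized, in 1 matrix per group. Cell Ranger, StringTie, Seurat 3 and mm10 are named in the submitters' processing notes; no role or order is stated for them. The matrices name their group by a control and an experimental prefix, matched to the titles. No column was left unused (0).

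A barcode was kept as a cell with UMIs above 10% of the 99th percentile taken over the 3000 largest barcodes (2291 UMIs in the ShhN and 2333 in the wild type library), 800 genes and at most 10% mitochondrial UMIs. Library totals were 69470062 and 63760199 UMIs. Doublets (241 of 8317 ShhN and 296 of 7216 wild type barcodes), called by scrublet through scanpy 1.11.5 with a rate of 6%, were taken out. Cells were clustered together on 2000 variable genes without cell cycle, hedgehog, globin, mitochondrial, Xist and Y-linked genes, with 30 components, 15 neighbours and Leiden resolution 1 (leidenalg 0.10.2). Names needed 3 markers seen in 10% of cells and 1.5-fold above the rest, from 16 lists, and were withheld where another list led more of the 10 top genes or an equal share of its markers. This naming rule was adjusted after the clusters were seen, and names may differ from the authors'. UMIs were summed per class and library. CPM carry exact Poisson, ratios exact conditional binomial and shares Clopper-Pearson intervals. Where a share is 0, its limit rests on 3 counts. Alternatives included TMM factors (edgeR 4.0.16). The code was tested on simulated data. All members were named; of other G2 and M and S phase genes, the 4 highest and 4 lowest, of which 1 is not reported here. Marker genes of dividing cells were named after their values were seen. Members and lists were chosen with earlier results of these data known.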

Additional observations from a re-analysis of the deposited data

Results flagged for a closer look

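Barcodes with 1 to 50 UMIs entered comparisons between cells only through the subtraction of free RNA. They held the 41 genes at 2201 CPM in the ShhN library, above the 649 CPM that they held in the wild type library. Top2a stood at 85.6 CPM there in the ShhN library and 12.3 CPM in the wild type library.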

How the results depend on the processing

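Over all cells, 39 to 40 of the 41 genes were higher in the ShhN library under every alternative, with medians of 1.69 to 1.82. These were TMM scaling, minimums of 20, 200 and no UMIs, equal weight per cell and thinning. Free RNA subtraction set at 5%, doublets kept, a 5% mitochondrial limit and a doubled UMI threshold were the others. The 5% of free RNA was a setting, so the subtraction does not settle the part of free RNA. Radial glia-like cells had 0 genes higher under the same alternatives and under other clusterings and marker gates, with medians of 0.05 to 0.27, and their ratio of dividing shares ran from 0.93 to 1.25. Neurogenic intermediate progenitor-like cells had 33 to 41 genes higher. At Leiden resolution 0.5 their median log2 ratio was 1.76 and their ratio of dividing shares 3.41, and the late share was 1.66 percentage points higher in ShhN cells. With marker gates, the late share in radial glia-like cells was lower in ShhN cells by 3.45 points (-3.45). The share of dividing cells in Shh-carrying over Shh-free cells was 0.472 at 3 Shh UMIs, 0.781 at 1 and 0.205 at 10; the cause was not tested. No called result reversed; the dividing share ratio of radial glia-like cells crossed 1. Leaving out replicates was not possible, since cells could not be traced to samples. No paired analysis was possible because each group is 1 matrix whose cells carry no replicate number. Depth limits genes with few UMIs, such as Anln, and classes with under 100 cells in a library.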
